A study of Mus musculus with 11 samples.

Results

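The FoxO and antioxidant defence genes described here are 10 genes of the count table that were chosen by symbol: the transcription factors Foxo1, Foxo3, and Foxo4, the enzymes Sod1, Sod2, Cat, and Prdx1, the thioredoxin inhibitor Txnip, the stress-response factor Nfe2l2, and the kinase Atm. All 10 were among the 12647 genes of the table, and all 10 passed the filter on low counts that left 12625 genes for testing. FoxO factors are held in the cytoplasm by AKT phosphorylation when growth factor signalling is high, and in its absence they enter the nucleus and turn on genes for cell cycle exit, survival, and detoxification of reactive oxygen species. Superoxide is converted to hydrogen peroxide by superoxide dismutases, and the peroxide is then removed by catalase, peroxiredoxins, and glutathione peroxidases. HSCs are known to depend on FoxO factors and on ATM to keep reactive oxygen species low and to stay quiescent, and p53 regulates both antioxidant and pro-oxidant genes.

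LSKs, the Lin-Sca1+Kit+ fraction of bone marrow that contains HSCs and multipotent progenitors, were sorted from p53+/+, p53R248W/+, and p53-/- mice of C57BL/6 background for RNA-seq. There were 9 libraries, 3 per genotype. The comparisons ask how a heterozygous hot-spot mutant and complete loss of p53 each change expression, and whether the mutant differs from loss. The mice were 8 to 12 weeks old and free of tumours. The p53+/+ mice carried the humanized HUPKI allele, which encodes a chimeric human and mouse p53, and the p53R248W/+ mice carried R248W in the HUPKI allele, heterozygous and under the endogenous Trp53 promoter. The methods name HUPKI for these 2 genotypes and not for p53-/- mice, so in the comparisons with p53-/- the allele and the loss of p53 cannot be told apart. Nothing in the labels says whether the 3 libraries of a genotype came from separate mice, so the p-values measure the spread between these libraries. The column headers of the p53-/- libraries in the count table differ in form from those of the other genotypes. Whether these libraries were prepared apart is not stated, and a difference in preparation could not be told apart from the genotype.

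The libraries held 18021375 to 29750702 reads assigned to genes. Kit ranged from 427 to 861 CPM and Ly6a (Sca-1) from 149 to 444 CPM over the 9 libraries, so the genes of Kit and Sca-1 were expressed throughout. Cd34, which is not part of the LSK definition, ranged from 1372 to 1821 CPM. CPM are counts scaled to a common library size with TMM factors. Trp53 was at 125, 207, and 376 CPM in p53+/+, 219, 240, and 235 CPM in p53R248W/+, and 129, 127, and 112 CPM in p53-/- libraries, and the part of the gene missing in the null allele is not given in the sources used here. Cdkn1a, a direct p53 target, was at 43.6 to 67.0 CPM in p53+/+ and at 8.27 to 17.8 CPM in p53-/- libraries (log2 fold change -2.07 ± 0.29 SE, adjusted p = 0.00914, edgeR). The p53R248W/+ replicate 1 library stood apart. It was the deepest, and its long genes (4342 bases or more) relative to short genes (1815 bases or less) were at -0.66 on the log2 scale, against 0.29 and 0.33 in its replicates. Summed CPM of 4 Y-linked genes were 110 in p53+/+ replicate 2 and 69.8 and 184 in p53R248W/+ replicates 2 and 3, and at most 0.216 in the other 6 libraries, all p53-/- libraries among them. Xist was at 65.0 and 149 CPM in the replicate 2 libraries of p53+/+ and p53R248W/+, which thus held both Y-linked and Xist reads.

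The main pattern was a higher level of Txnip in p53-/- LSKs and small, uncalled differences of the antioxidant enzymes. In p53R248W/+ against p53+/+, 0 of the 10 genes passed an adjusted p of 0.05 in edgeR, beside 0.00792% of all genes tested, and 0 had an unadjusted p below 0.05, beside 0.958%. Between p53-/- and p53+/+ LSKs, 1 gene passed (Txnip, higher), beside 3.5% of all genes (1.25% higher and 2.25% lower). Txnip and Atm had an unadjusted p below 0.05, beside 23.4% of all genes. Between p53R248W/+ and p53-/- LSKs, 0 of the 10 passed, beside 3.44% of all genes, with 2.34% higher and 1.1% lower, and 3 genes (Foxo1, Foxo4, and Txnip) had an unadjusted p below 0.05, beside 21%. DESeq2 called 0, 1, and 1 of the 10 genes in these comparisons. The 10 genes split 5 higher and 5 lower, 6 and 4, and 5 and 5, and their median log2 fold changes were 0.058, 0.073, and 0.00095, beside medians of all genes of 0.012, -0.0012, and 0.019. The comparisons share libraries and are not independent of each other.

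**Figure D1:**
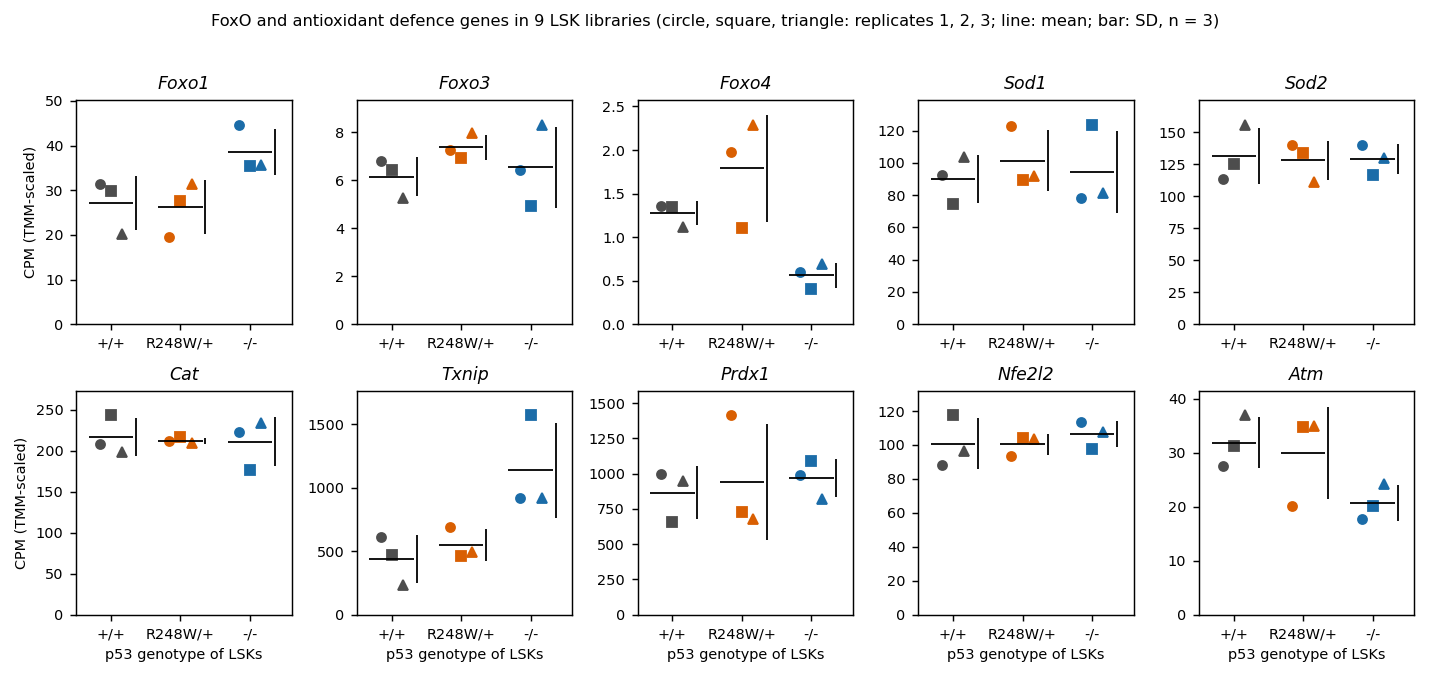
CPM of the 10 genes in each of the 9 LSK libraries by p53 genotype, with replicates 1, 2, and 3 as circle, square, and triangle, the mean as a line, and the SD (n = 3) as a vertical bar. Txnip in all 3 p53-/- libraries (918 to 1568 CPM) lay above all 6 other libraries (232 to 691 CPM), Foxo4 in p53-/- lay below them, and Sod1, Sod2, Cat, Prdx1, and Nfe2l2 overlapped between all genotypes.

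Libraries of the compared genotypes did not overlap for 1 gene in p53R248W/+ against p53+/+ (Foxo3, higher), beside 5.04% of all genes. In p53-/- against p53+/+ they did not overlap for 4 genes, beside 31.4% of all genes: Foxo1 and Txnip lay higher and Foxo4 and Atm lower in p53-/-. In p53R248W/+ against p53-/- they did not overlap for 3 genes, beside 24.2%, with Foxo4 higher and Foxo1 and Txnip lower in p53R248W/+.

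Foxo1 (chr3:52268337-52350109 on GRCm38.p6) encodes a FoxO factor with known roles in lymphoid development and in HSCs. It was at 31.3, 29.8, and 20.1 CPM in p53+/+, 19.6, 27.7, and 31.4 CPM in p53R248W/+, and 44.6, 35.5, and 35.6 CPM in p53-/- libraries. Each p53-/- library was above every other library, while p53+/+ and p53R248W/+ covered the same range. The log2 fold change was 0.51 (95% interval -0.0031 to 1.02) in p53-/- against p53+/+ (adjusted p = 0.217, edgeR) and -0.56 (-1.07 to -0.04) in p53R248W/+ against p53-/- (adjusted p = 0.203). In p53R248W/+ against p53+/+ it was -0.047 (-0.56 to 0.47), and the test passed in none of these comparisons.

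Foxo3 (chr10:42181845-42276695), the FoxO factor best known for keeping HSCs quiescent, was at 6.80, 6.43, and 5.24 CPM in p53+/+, 7.26, 6.93, and 7.95 CPM in p53R248W/+, and 6.42, 4.92, and 8.30 CPM in p53-/- libraries. The p53R248W/+ libraries were all just above the p53+/+ ones, by a log2 fold change of 0.26 (-0.36 to 0.89; adjusted p = 1.0, edgeR), and the p53-/- libraries spanned the whole range of the others. The p53-/- against p53+/+ difference was 0.088 (-0.54 to 0.72) on the log2 scale.

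Foxo4 (chrX:101254261-101260873), an X-linked FoxO factor, had the fewest reads of the 10 genes. Its deposited counts were 27, 27, and 20 in p53+/+, 55, 23, and 50 in p53R248W/+, and 11, 9, and 14 in p53-/- libraries. Scaled to library size these were 1.36, 1.34, and 1.12 CPM, 1.98, 1.11, and 2.29 CPM, and 0.598, 0.407, and 0.687 CPM. The p53-/- libraries were the 3 lowest of the 9, and p53R248W/+ replicate 2 lay just below the p53+/+ libraries with the other two above them. The log2 fold change was -1.17 ± 0.54 (SE) in p53-/- against p53+/+ (adjusted p = 0.220, edgeR) and 1.66 ± 0.54 in p53R248W/+ against p53-/- (adjusted p = 0.107), and neither passed the test. At 9 to 55 counts a library, these SEs were the largest of the 10 genes. The direction of both was the same under the 18 alternatives that kept the gene, and a minimum of 10 counts in every library dropped it. As Foxo4 is X-linked, the Y-linked and Xist values above stand beside this result, and their part in it was not tested.

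Txnip (chr3:96557957-96561857), which encodes an inhibitor of thioredoxin that also limits glucose uptake and is known to promote HSC quiescence, was the only gene of the 10 that passed the edgeR test in any comparison. It was at 614, 467, and 232 CPM in p53+/+, 691, 459, and 493 CPM in p53R248W/+, and 920, 1568, and 918 CPM in p53-/- libraries. The lowest p53-/- library was above the highest of the other 6, and p53+/+ replicate 3 was lowest of all. Txnip rose by a log2 fold change of 1.37 ± 0.33 (SE) in p53-/- against p53+/+, or 2.59-fold (95% interval 1.58 to 4.25; adjusted p = 0.0455, edgeR). Against p53-/-, p53R248W/+ libraries had a log2 fold change of -1.05 ± 0.33, or 0.482-fold (0.295 to 0.790), which did not pass the test (adjusted p = 0.0962). Against p53+/+ their log2 fold change was 0.32 (-0.39 to 1.03; adjusted p = 1.0).

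The p53-/- call lay close to the threshold. Over 19 alternatives the log2 fold change of Txnip ranged from 1.07 to 1.70 and the adjusted p from 0.00094 to 0.156, and 9 of them lost the call. These were upper-quartile scaling (adjusted p = 0.0504), the Y-linked covariate (0.0609), and the fits without 1 of 7 libraries: p53+/+ replicate 2 (0.121) or 3 (0.156), p53R248W/+ replicate 2 (0.0575) or 3 (0.0579), or p53-/- replicate 1 (0.0926), 2 (0.130), or 3 (0.0733). Without p53+/+ replicate 2, where Y-linked sums in the comparison were at most 0.167 CPM, the log2 fold change was 1.42. The p53R248W/+ against p53-/- difference of Txnip passed under DESeq2 (log2 fold change -1.06, adjusted p = 0.0167) and in edgeR without p53R248W/+ replicate 1 (-1.28, adjusted p = 0.0395). On counts simulated for p53-/- against p53+/+, DESeq2 made 53 false calls and edgeR 10. The simulated counts were drawn with the spread of each gene that edgeR had estimated, so the tools were not compared on equal terms. That simulation did not cover p53R248W/+ against p53-/- and cannot tell whether this call of Txnip is false.

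**Figure D2:**
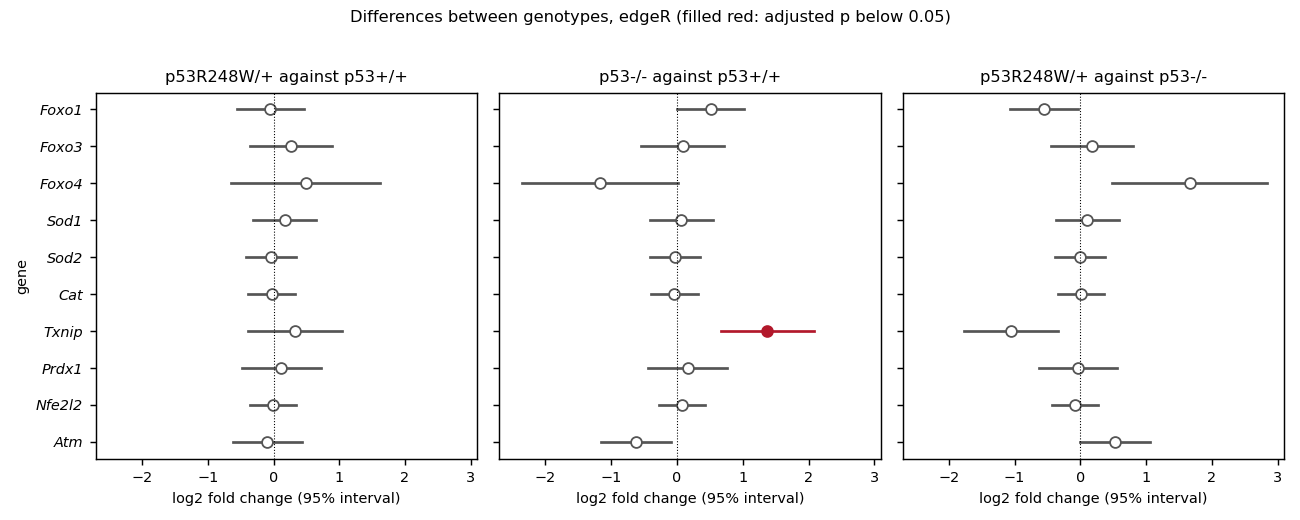
Log2 fold changes of the 10 genes with 95% intervals from edgeR in p53R248W/+ against p53+/+, p53-/- against p53+/+, and p53R248W/+ against p53-/-, with a filled red point where the adjusted p is below 0.05. Txnip in p53-/- against p53+/+ (1.37) is the only filled point, and the intervals of Sod1, Sod2, Cat, Prdx1, and Nfe2l2 cover 0 in all 3 comparisons.

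Txnip lies within Gm15441, a gene of the opposite strand at chr3:96555768-96566801, and 21.6% of the exon bases of Txnip (606 of 2801) are also exon bases of Gm15441 in RefSeq. Whether reads were counted by strand is not given in the sources used here, so reads over these bases cannot be told apart by their strand. Gm15441, which was looked up after the values of Txnip were seen, was at 0.558 to 2.89 CPM over the 9 libraries, and its log2 fold change in p53-/- against p53+/+ was 0.63 ± 0.62 (SE; adjusted p = 0.576, edgeR).

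The promoter sequences of Txnip and of the 3 genes of the 10 that hold an antioxidant response element core are shown because their letters hold a FoxO element or an NRF2 binding core in front of the start. They are the 250 bases before the RefSeq start on GRCm38.p6, 5′ to 3′ along the gene, with the matched letters in capitals.
Txnip promoter, chr3:96557707-96557956, plus strand: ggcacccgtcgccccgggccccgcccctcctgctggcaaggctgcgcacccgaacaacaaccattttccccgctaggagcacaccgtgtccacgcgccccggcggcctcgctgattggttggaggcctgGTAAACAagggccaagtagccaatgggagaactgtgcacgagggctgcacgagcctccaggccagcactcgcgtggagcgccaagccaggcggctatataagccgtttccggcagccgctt
Nfe2l2 promoter, chr2:75704664-75704913, minus strand: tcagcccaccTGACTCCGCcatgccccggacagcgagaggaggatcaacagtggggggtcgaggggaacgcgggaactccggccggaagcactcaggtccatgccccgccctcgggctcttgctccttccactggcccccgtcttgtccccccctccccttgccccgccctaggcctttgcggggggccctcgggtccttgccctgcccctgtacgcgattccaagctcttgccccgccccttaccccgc
Prdx1 promoter, chr4:116685349-116685598, plus strand: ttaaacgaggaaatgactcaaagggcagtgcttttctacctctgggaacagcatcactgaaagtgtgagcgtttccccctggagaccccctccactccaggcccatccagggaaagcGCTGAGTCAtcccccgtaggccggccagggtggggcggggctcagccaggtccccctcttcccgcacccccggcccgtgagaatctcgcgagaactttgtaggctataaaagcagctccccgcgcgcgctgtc
Sod1 promoter, chr16:90220512-90220761, plus strand: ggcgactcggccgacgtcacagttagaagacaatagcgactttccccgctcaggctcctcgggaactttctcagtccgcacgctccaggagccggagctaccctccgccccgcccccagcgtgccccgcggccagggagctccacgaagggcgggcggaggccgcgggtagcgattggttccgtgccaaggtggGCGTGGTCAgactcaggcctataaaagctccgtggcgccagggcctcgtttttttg
RefSeq promoters were matched for 9 of the 10 genes, all but Foxo4. The FoxO element TGTTTAC was searched on both strands and occurred once, in Txnip, on the minus strand at 121 bases before the start, and 3.17% of 32851 promoters held it. The antioxidant response element core TGACNNNGC occurred in Nfe2l2 (240 bases before the start), Prdx1 (133 bases), and Sod1 (56 bases), and 10.2% of promoters held it. The E-box CACGTG was in none of the 9 windows and in 6.02% of all promoters. These are letter matches in the windows searched.

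Among the enzymes, Sod1 (chr16:90220762-90226333), the cytosolic copper and zinc superoxide dismutase, was at 92.7, 74.3, and 103 CPM in p53+/+, 123, 89.2, and 92.0 CPM in p53R248W/+, and 78.2, 123, and 81.3 CPM in p53-/- libraries. Its highest libraries were p53R248W/+ replicate 1 and p53-/- replicate 2, the pair in which long genes were lowest relative to short ones (-0.66 and -0.42 on the log2 scale), and Sod1 is the shortest of the 10 genes at 648 bases. The part of gene length in the level of Sod1 was not tested. Its log2 fold changes were 0.17 (-0.31 to 0.65) in p53R248W/+ against p53+/+, 0.066 (-0.41 to 0.54) in p53-/- against p53+/+, and 0.11 (-0.37 to 0.58) in p53R248W/+ against p53-/-.

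Sod2 (chr17:13007839-13018119), the mitochondrial manganese superoxide dismutase, was at 113, 125, and 155 CPM in p53+/+, 140, 133, and 111 CPM in p53R248W/+, and 140, 117, and 130 CPM in p53-/- libraries. All genotypes overlapped, and the log2 fold changes were between -0.035 and -0.0087, with a 95% interval of -0.41 to 0.35 in p53-/- against p53+/+.

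Cat (chr2:103453904-103485153), catalase, was at 209, 243, and 199 CPM in p53+/+, 212, 217, and 209 CPM in p53R248W/+, and 222, 177, and 234 CPM in p53-/- libraries. It was the steadiest of the 10 genes in p53R248W/+ libraries, with a coefficient of variation of 1.72%, and its log2 fold change in p53-/- against p53+/+ was -0.040 (-0.39 to 0.31).

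Prdx1 (chr4:116685599-116700000), the main cytosolic peroxiredoxin, was at 998, 653, and 945 CPM in p53+/+, 1412, 730, and 679 CPM in p53R248W/+, and 992, 1091, and 820 CPM in p53-/- libraries. The p53R248W/+ replicate 1 library was the highest of all, at 2.08 times the lowest library of its genotype. The log2 fold change was 0.16 (-0.43 to 0.76) in p53-/- against p53+/+ and 0.12 (-0.48 to 0.72) in p53R248W/+ against p53+/+. Without p53R248W/+ replicate 1 the second value was -0.31. RefSeq lists a pseudogene of Prdx1, and how reads shared by near-identical copies were assigned is not given in the sources used here. AV051173, on the opposite strand, shares 1.13% of the exon bases of Prdx1.

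The log2 fold changes of the 4 enzymes thus lay between -0.041 and 0.17 in all 3 comparisons. With 3 libraries per genotype, the 95% intervals of p53-/- against p53+/+ were as wide as 0.740 to 1.69-fold for Prdx1 and 0.754 to 1.28-fold for Sod2. Differences of any size within them are compatible with these libraries.

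Nfe2l2 (chr2:75675513-75704663) encodes NRF2, which is degraded through KEAP1 in unstressed cells and so is regulated mostly as a protein. Its mRNA was at 88.3, 117, and 96.2 CPM in p53+/+, 93.4, 104, and 104 CPM in p53R248W/+, and 113, 97.9, and 108 CPM in p53-/- libraries. The genotypes overlapped, and the log2 fold change was 0.080 (-0.27 to 0.43) in p53-/- against p53+/+ and -0.0033 (-0.35 to 0.35) in p53R248W/+ against p53+/+, the smallest difference of the 10 genes in that comparison.

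Atm (chr9:53437122-53536828), the kinase that responds to DNA double-strand breaks and to oxidation, was at 27.5, 31.2, and 36.9 CPM in p53+/+, 20.1, 34.9, and 34.9 CPM in p53R248W/+, and 17.7, 20.2, and 24.3 CPM in p53-/- libraries. The p53-/- libraries were all below the p53+/+ libraries, and p53R248W/+ replicate 1 lay among the p53-/- ones while its replicates lay among the p53+/+ ones. The log2 fold change was -0.62 (-1.15 to -0.09) in p53-/- against p53+/+ (adjusted p = 0.156, edgeR) and 0.53 (-0.0020 to 1.06) in p53R248W/+ against p53-/- (adjusted p = 0.241). Atm is the longest of the 10 genes at 11964 bases. With the trend on gene length removed, a setting chosen after seeing the data, these values were -0.18 (adjusted p = 0.509, edgeR) and 0.13 (adjusted p = 0.664). In that setting the log2 fold change of Txnip in p53-/- against p53+/+ was 1.45 (adjusted p = 0.0240). Removing the trend can also remove genotype differences that go with length. The part of gene length in the Atm values was not tested. Without p53R248W/+ replicate 1, Atm was 0.73 higher in p53R248W/+ than in p53-/- LSKs on the log2 scale and passed the test (adjusted p = 0.0403).

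Other values of the same libraries also differed between genotypes. The summed CPM of 15 LT-HSC markers, none of which was at 0, were 1041 to 1543 in p53+/+, 1217 to 1346 in p53R248W/+, and 2087 to 2416 in p53-/- libraries, and 1 of the 15 was called in p53-/- against p53+/+. In that comparison 12 of the 15 had higher values and 3 lower, with log2 fold changes from -0.81 to 1.35. The sum of 9 multipotent progenitor markers was lower in p53-/-, at 4730 to 5405 CPM, than in p53+/+, at 7227 to 7732 CPM. In p53R248W/+ it was 8315 to 10826 CPM, above p53+/+, and Mpo, among the 9, had a mean of 4220 CPM against 2470 CPM. Of the 9 markers, 7 had higher values in p53R248W/+ than in p53+/+ and 2 lower. Their median log2 fold change was 0.072, and 0 were called, beside 0.00792% of all genes. Against p53+/+, 7 of the 9 markers had lower values in p53-/- and 2 higher, and Mpo fell from a mean of 2470 to 1250 CPM. The sum of 30 cell cycle genes was 6496 to 8300 CPM in p53+/+, 6740 to 7552 CPM in p53R248W/+, and 4501 to 6640 CPM in p53-/- libraries, with 6 genes called lower in p53-/- against p53+/+. The sum of 18 dissociation and heat shock genes was 5042 to 7898 CPM in p53+/+, 4268 to 10462 CPM in p53R248W/+, and 3028 to 4858 CPM in p53-/- libraries, with 5 called lower. Over all genes, 1.25% were called higher and 2.25% lower in p53-/- against p53+/+. The part of each sum in the Txnip and Atm results was not tested, and in bulk LSKs a larger share of one cell type and more RNA per cell cannot be told apart.

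**Figure D3:**
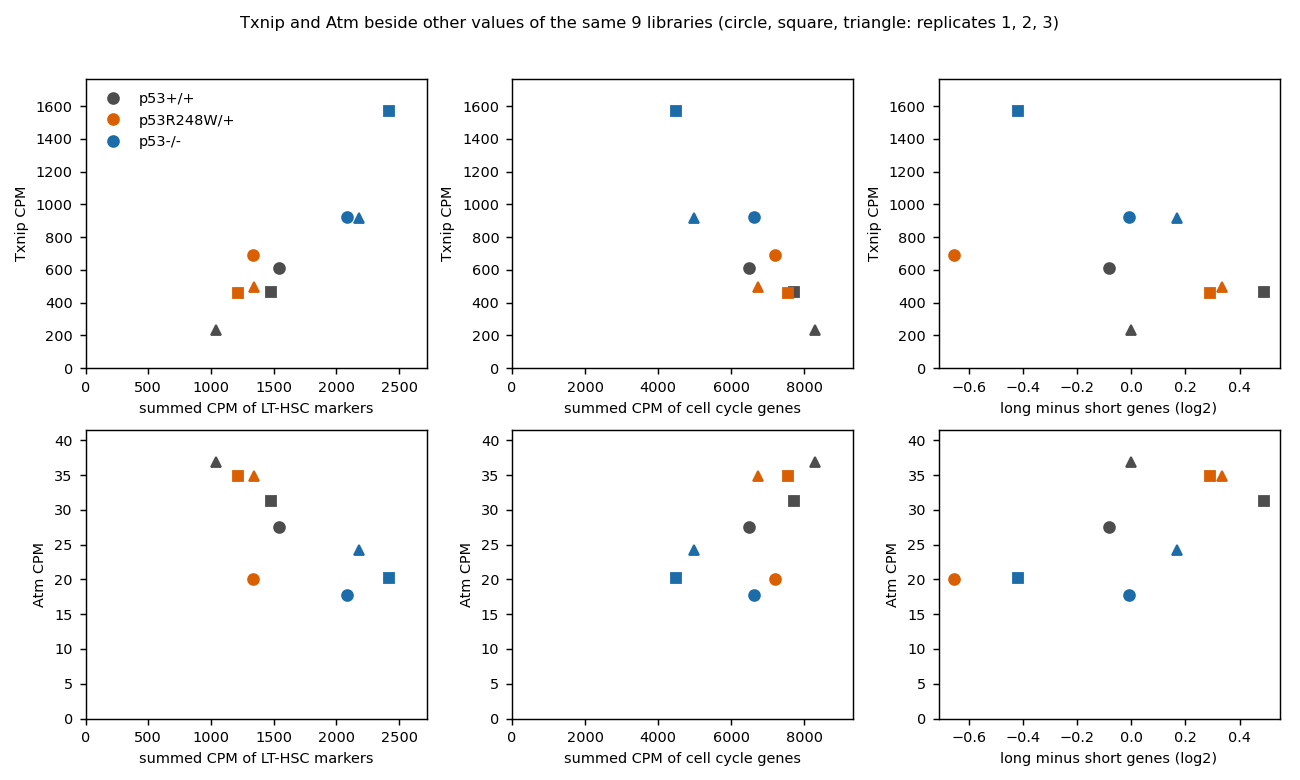
CPM of Txnip (top row) and Atm (bottom row) in the 9 libraries against the summed CPM of LT-HSC markers, the summed CPM of cell cycle genes, and the level of long relative to short genes (log2), coloured by genotype. The p53-/- libraries have the highest LT-HSC sums (2087 to 2416 CPM) and the highest Txnip, and p53R248W/+ replicate 1, at -0.66 on the gene length axis, has the lowest Atm of its genotype (20.1 CPM).

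Per kilobase of deposited gene length (RPKM), the 10 genes spanned over 3 orders of magnitude. In p53+/+ LSKs the order of mean RPKM was Prdx1 (611 ± 131, SD, n = 3), Txnip (156 ± 68.7), Sod1 (139 ± 22.8), Cat (85.0 ± 9.12), Nfe2l2 (40.8 ± 6.10), Sod2 (34.3 ± 5.70), Foxo1 (4.88 ± 1.09), Atm (2.67 ± 0.396), Foxo3 (2.13 ± 0.282), and Foxo4 (0.403 ± 0.0434). Neighbours whose libraries overlapped were Txnip and Sod1, Nfe2l2 and Sod2, and Atm and Foxo3, and all other neighbours were separate. The detoxifying enzymes were thus expressed well above the FoxO factors, and among the latter Foxo1 was highest and Foxo4 lowest in every genotype. In p53-/- LSKs Txnip, at 405 ± 134 RPKM, was separate from Sod1, at 146 ± 39.0 RPKM. The deposited length of Foxo3 is 2889 bases, while its RefSeq exons cover 6787 bases, so its RPKM depends on the annotation used for length and its place beside Atm is uncertain.

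**Figure D4:**
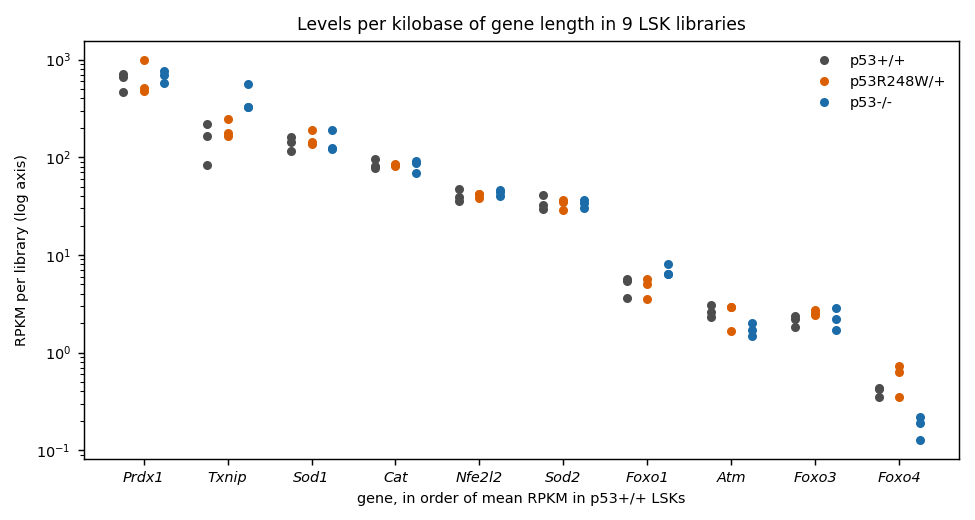
RPKM of the 10 genes in each library on a log axis, ordered by mean RPKM in p53+/+ LSKs and coloured by genotype. Prdx1 is highest (611 in p53+/+) and Foxo4 lowest (0.403) in every genotype, and the p53-/- points of Txnip (mean 405) lie above its other points.

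The spread between libraries of 1 genotype was widest for Txnip in p53+/+ (coefficient of variation 43.9%) and for Prdx1 in p53R248W/+ (43.6%). It was 34.1% for Foxo4 in p53R248W/+ and 33.0% for Txnip in p53-/- libraries.

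The other genes of these pathways were read from 9 lists of 160 tested genes, with the 10 genes above left out. In p53R248W/+ against p53+/+, 0 of the 160 were called by edgeR, beside 0.00792% of all genes, and 0 by DESeq2. An unadjusted p below 0.05 was reached by 2 (Mpo, higher, and Hmox1, lower), beside 0.958% of all genes. In p53-/- against p53+/+, 5 were called (2 higher and 3 lower), beside 3.5% of all genes. In p53R248W/+ against p53-/- 9 were called (6 higher and 3 lower), beside 3.44%. These counts changed when 1 library was left out. The first was 0 without p53+/+ replicate 2 or 3 or without any one p53-/- library, 9 without p53+/+ replicate 1, 3 without p53R248W/+ replicate 3, and 22 without p53R248W/+ replicate 1. The second was 27 without p53R248W/+ replicate 1 and at most 6 without any other library except p53+/+ replicate 1, where it was 9: it was 6 without p53+/+ replicate 2 or 3, 4 without p53-/- replicate 1, 2 without p53R248W/+ replicate 2 or p53-/- replicate 3, and 1 without p53R248W/+ replicate 3 or p53-/- replicate 2. The calls over all genes tested shifted too. In p53-/- against p53+/+ they were 442 in the main fit, 37 without p53+/+ replicate 3, and 1485 without p53R248W/+ replicate 1. In p53R248W/+ against p53-/- they were 434 in the main fit, 77 without p53R248W/+ replicate 3, and 1559 without p53R248W/+ replicate 1.

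Upstream of the FoxO factors, 0 of 23 regulators (AKT and PI3K subunits, sirtuins, and other modifiers) were called in any comparison. In p53-/- against p53+/+, 5 had an unadjusted p below 0.05, 4 of them higher, beside 23.4% of all genes. The median log2 fold change was -0.036.

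Of 31 FoxO target genes, 2 were called in p53-/- against p53+/+, both higher, beside 3.5% of all genes. At an unadjusted p below 0.05 the list was split, with 4 genes higher and 4 lower, beside 23.4% of all genes. Its values ranged from -2.71 (Klf2, adjusted p = 0.0506, edgeR) to 1.13 with a median of 0.16. Sesn1, a stress-induced inhibitor of mTORC1 that is a target of both FoxO and p53, was at 195 to 256 CPM in p53+/+ and 336 to 417 CPM in p53-/- libraries (log2 fold change 0.76 ± 0.16 SE, adjusted p = 0.0332, edgeR). S1pr1, the receptor for sphingosine 1-phosphate that guides leukocyte egress, was at 16.5 to 29.9 CPM in p53+/+ and 43.0 to 62.7 CPM in p53-/- libraries (1.13 ± 0.27, adjusted p = 0.0434). Both lay without overlap above p53+/+ and kept their direction under 19 alternatives, but 6 of these lost the call of Sesn1 (adjusted p up to 0.148) and 7 that of S1pr1 (up to 0.177). Both calls were lost without p53+/+ replicate 2 (adjusted p = 0.1003 for Sesn1 and 0.134 for S1pr1) or 3 (0.148 and 0.177) and without p53-/- replicate 1 (0.101 and 0.130), 2 (0.0594 and 0.0821), or 3 (0.0860 and 0.0803). Sesn1 was also lost without p53R248W/+ replicate 2 (0.0508), and S1pr1 without p53R248W/+ replicate 3 (0.0579) and with the Y-linked covariate (0.0598).

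Against p53-/-, p53R248W/+ LSKs had 4 FoxO targets called, 2 in each direction, beside 3.44% of all genes, and the list median was -0.15. S1pr1 was lower (-1.25 ± 0.27, adjusted p = 0.0324, edgeR), and so was Cited2, a transcriptional co-regulator that maintains HSCs (-0.87 ± 0.21, adjusted p = 0.0493), which was named after its value was seen. The call of Cited2 lay close to the threshold, and its values under the alternatives are not given here. Klf2, a quiescence factor of lymphocytes that is also an immediate early gene, was higher, at 24.6 to 190 CPM against 7.27 to 10.2 CPM (3.50 ± 0.64, adjusted p = 0.0253). The call of S1pr1 was lost in 6 of 19 alternatives: with the Y-linked covariate (0.0936), without p53R248W/+ replicate 2 (0.121) or 3 (0.108), and without p53-/- replicate 1 (0.0978), 2 (0.0640), or 3 (0.0778). That of Klf2 was lost in 5: with limma-voom (0.0722), without p53R248W/+ replicate 3 (0.0558), and without p53-/- replicate 1 (0.0820), 2 (0.0811), or 3 (0.0866). Klf2 was highest in p53R248W/+ replicate 1, the library with the highest sum of dissociation and heat shock genes (10462 CPM), and the part of that sum in its level was not tested.

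Among the partners of the enzymes, 12 of 14 listed genes for superoxide and peroxide metabolism were tested. In p53-/- against p53+/+, 0 were called, 10 were higher, and the median log2 fold change was 0.30. Between p53R248W/+ and p53-/- LSKs 1 was called, beside 3.44% of all genes. It was Mpo, which encodes the myeloperoxidase of granulocytes and their progenitors and uses hydrogen peroxide rather than protecting from it. Mpo was at 3214 to 5776 CPM in p53R248W/+ and 1125 to 1456 CPM in p53-/- libraries (1.76 ± 0.25, adjusted p = 0.00778, edgeR), and it stayed past the threshold in all 19 alternatives. Mpo is also among the multipotent progenitor markers, whose sum was 8315 to 10826 CPM in p53R248W/+ libraries.

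Of 18 genes of the thioredoxin and glutaredoxin system, on which Txnip acts, 0 were called in any comparison, and the median log2 fold change in p53-/- against p53+/+ was -0.011, with 2 genes at an unadjusted p below 0.05, both higher. Of 22 genes of glutathione synthesis and use, 0 were called in any comparison, and 3 had an unadjusted p below 0.05 in p53-/- against p53+/+, all higher, with a median of 0.17. Of 26 NRF2 partners and targets, 0 were called in p53-/- against p53+/+ (median 0.095, 4 at an unadjusted p below 0.05, all higher). Over all genes, 23.4% had an unadjusted p below 0.05 in p53-/- against p53+/+, a larger share than in any of these lists. Relative to p53-/-, in p53R248W/+ LSKs Hmox1, the heme oxygenase that NRF2 induces, was called lower (-1.19 ± 0.27, adjusted p = 0.0386, edgeR), at 12.7 to 15.6 CPM against 19.0 to 41.0 CPM. This call was lost in 9 of 19 alternatives: with limma-voom (0.0583), the Y-linked covariate (0.0823), and a fit to 6 libraries (0.0722), without p53+/+ replicate 2 (0.0530) or 3 (0.0578), without p53R248W/+ replicate 2 (0.104) or 3 (0.138), and without p53-/- replicate 2 (0.111) or 3 (0.107). Of 9 p53-linked redox genes tested, the 1 called in p53-/- against p53+/+ was Sesn1, beside 3.5% of all genes. Of 8 NADPH oxidase genes, which make superoxide, 0 were called in any comparison, beside at most 3.5% of all genes. In p53-/- against p53+/+, 3 of them had an unadjusted p below 0.05, 2 higher and 1 lower, beside 23.4% of all genes. In p53R248W/+ against p53-/- 3 did, 1 higher and 2 lower, beside 21%. Their log2 fold changes in p53-/- against p53+/+ ranged from -2.38 to 1.91.

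Of 20 ATM signalling genes, 15 had values lower in p53-/- than in p53+/+ LSKs. Of these, 11 had an unadjusted p below 0.05, as did 1 higher gene, beside 23.4% of all genes. The median log2 fold change was -0.54, beside a median of -0.0012 over all genes. The 3 called genes were lower, beside 2.25% of all genes called lower. Rad50, a subunit of the complex that brings ATM to DNA breaks, was at 62.2 to 97.6 CPM in p53+/+ and 19.3 to 30.9 CPM in p53-/- libraries (-1.69 ± 0.33, adjusted p = 0.0266, edgeR). Rnf168, a ubiquitin ligase of damaged chromatin (-0.93 ± 0.19, adjusted p = 0.0295), and Prkdc, the catalytic subunit of DNA-PK (-0.84 ± 0.21, adjusted p = 0.0494), were the others. Between p53R248W/+ and p53-/- LSKs 3 genes were called higher, beside 2.34% of all genes: Rad50 (1.62 ± 0.33, adjusted p = 0.0283, edgeR), Rnf168 (1.10 ± 0.19, adjusted p = 0.0160), and Brca1, which acts in repair by homologous recombination (1.39 ± 0.32, adjusted p = 0.0415). The directions were the same under 19 alternatives, while many of the calls were not.

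For p53-/- against p53+/+, 5 alternatives lost the call of Rad50 and 5 that of Rnf168. For both genes these were the fits without p53+/+ replicate 2 (adjusted p = 0.0825 for Rad50 and 0.107 for Rnf168, edgeR) or 3 (0.126 and 0.140) and without p53-/- replicate 1 (0.0968 and 0.0976), 2 (0.0796 and 0.0881), or 3 (0.0633 and 0.0664). Prkdc lost its call in 10 alternatives. These were the fits without p53+/+ replicate 2 (0.157) or 3 (0.177), p53R248W/+ replicate 2 (0.0705) or 3 (0.0672), or p53-/- replicate 1 (0.125), 2 (0.125), or 3 (0.0792), limma-voom (0.0628), the Y-linked covariate (0.0615), and removal of the gene length trend (log2 fold change -0.34, adjusted p = 0.282). With the length trend removed Rad50 was at -1.53 (adjusted p = 0.00990).

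For p53R248W/+ against p53-/-, 8 alternatives lost the call of Rad50, 5 that of Rnf168, and 8 that of Brca1. All 3 calls were lost with the Y-linked covariate (adjusted p = 0.133 for Rad50, 0.0589 for Rnf168, and 0.102 for Brca1, edgeR), where Rad50 was at 0.96 on the log2 scale. They were also lost without p53R248W/+ replicate 2 (0.0995, 0.0751, and 0.111) or 3 (0.112, 0.0721, and 0.131) and without p53-/- replicate 2 (0.0756, 0.0610, and 0.0896). Rad50 and Rnf168 were lost without p53-/- replicate 1 (0.102 and 0.0597), and Rad50 and Brca1 without p53-/- replicate 3 (0.0740 and 0.110) and in a fit to 6 libraries (0.0512 and 0.0624). Rad50 was lost with limma-voom as well (0.0532), and Brca1 without p53+/+ replicate 2 (0.0514) or 3 (0.0618). Of the 30 cell cycle genes, 6 were called lower in p53-/- against p53+/+, beside 2.25% of all genes. The cell cycle sum of p53-/- replicate 1 (6640 CPM) was above that of p53+/+ replicate 1 (6496 CPM). The part of these genes in the levels of the repair genes was not tested.

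**Figure D5:**
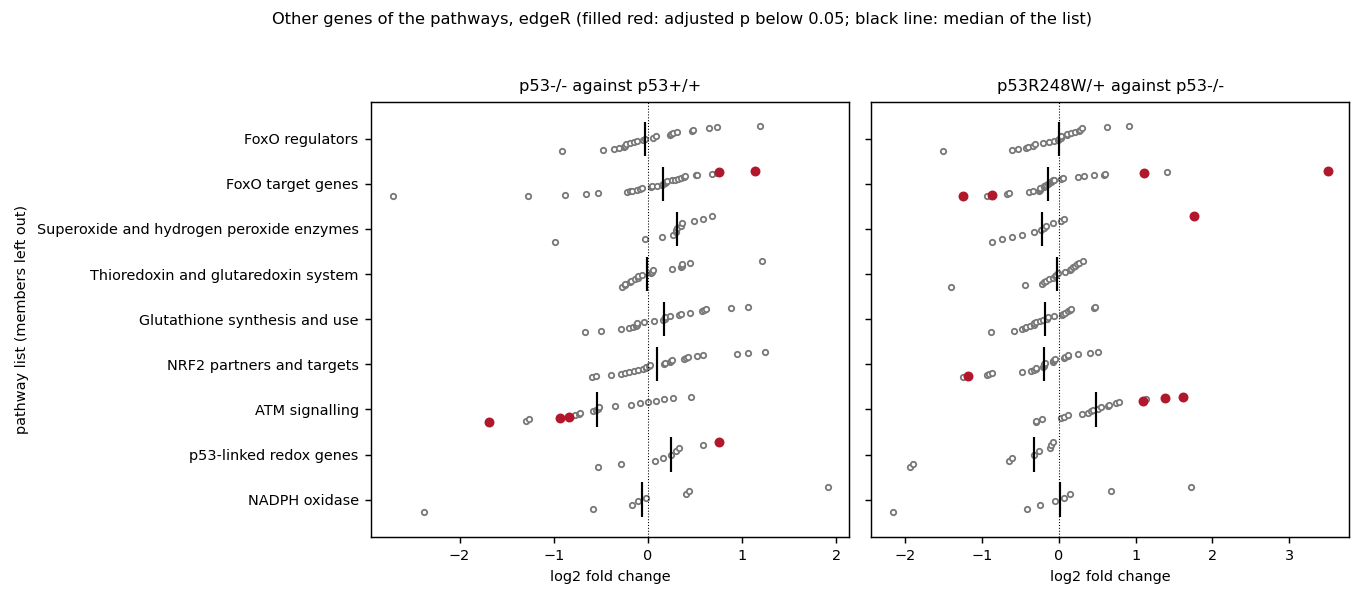
Log2 fold changes from edgeR of the other genes of 9 pathway lists in p53-/- against p53+/+ and p53R248W/+ against p53-/-, with filled red points for an adjusted p below 0.05 and a black line at the median of each list. The ATM signalling list has its median at -0.54 in the first comparison and 0.48 in the second, and the other lists have medians between -0.32 and 0.30.

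For each of the 10 genes, the pair of tested genes with the most similar pattern was found by Pearson r of log2 CPM over the 9 libraries, which include the difference between genotypes and share depth and gene length effects. For Txnip these were Fcgrt (r = 0.98) and Zfp963 (0.98), for Foxo1 Peg13 (0.98) and Timp2 (0.98), for Foxo3 Polr3f (0.96) and Mcf2 (0.95), and for Foxo4 Cyb5d1 (0.96) and C920006O11Rik (0.94). For the enzymes they were Ubxn1 (0.98) and Rps15 (0.97) for Sod1, Farsb (0.97) and Odc1 (0.96) for Sod2, Vps41 (0.97) and Cyth3 (0.96) for Cat, and Osgep (0.99) and Eif1ax (0.99) for Prdx1. Nfe2l2 was closest to Heatr5b (0.94) and Tle4 (0.93), and Atm to 9930021J03Rik (0.99) and Atxn2l (0.98). With 12625 genes to choose from and 9 libraries, values this high are a description of these libraries. No other gene of the 10 was among these pairs.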

How the data were processed

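RNA-seq of LSKs was analysed in 9 libraries, 3 for each of the genotypes p53+/+, p53R248W/+, and p53-/-. The table deposited by the authors holds raw counts for each gene and its length. Its columns on the authors' comparisons (log2 fold change, p, FDR) were left out. Every gene had at least 37 counts over the 9 libraries, and 0 genes had a blank symbol. The submitters' processing notes name STAR 2.5.2b, featureCounts from Subread 1.5.0, edgeR, and mm10, with no roles given. The sample labels name a SMART-Seq v4 kit for low input, while the methods describe oligo(dT) selection and random hexamers. Such kits can weigh long and short transcripts differently between libraries. The H3K27me3 ChIP-seq samples were not analysed here.

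The quasi-likelihood test of edgeR 4.0.16 (R 4.3.3) was used after filterByExpr, with TMM factors (0.935 to 1.04), 1 fit to 9 libraries, and Benjamini-Hochberg adjustment over 12625 genes, with a threshold of 0.05. SEs come from the fitted model, and 95% intervals use its degrees of freedom. RPKM are CPM divided by the deposited length in kilobases. As alternatives, limma-voom (3.58.1) and DESeq2 1.42.0 were run, with other scaling factors and filters, a replicate block, a Y-linked covariate, a fit to the 6 libraries compared, leaving out each library, and, chosen after seeing the data, removal of a loess trend on gene length. On simulated counts of 12625 genes for p53-/- against p53+/+ with 200 changed, edgeR recovered 161 with 10 false calls and DESeq2 178 with 53. The spread of each gene in the simulation was the one edgeR had estimated from these libraries. Replicates were checked for identical libraries by a chi-square test of their counts, which was 25.5 to 156 per gene, so none were merged. Named genes are the 10 genes, Trp53, Cdkn1a, up to 3 called genes with the smallest p per list and comparison, and the 2 genes most similar to each of the 10. One called list gene is not reported here by name. The members, lists, and named-gene rule were chosen with earlier results of these data known. Coordinates and promoters are from RefSeq on GRCm38.p6, whose chromosomes are those of mm10. Figures were made with Python 3.11.15.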

Additional observations from a re-analysis of the deposited data

How the results depend on the processing

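Of 567 values of the 10 genes under alternatives, 507 kept their direction and their side of the threshold, 9 lost the call (all Txnip in p53-/- against p53+/+, given above), 3 gained one, and 48 changed sign, with log2 fold changes of at most 0.43 in size after the change. In p53-/- against p53+/+, 0 of the 10 genes were called with upper-quartile factors or the Y-linked covariate, and 0 to 1 without 1 library. In p53R248W/+ against p53-/-, 1 was called by DESeq2 and 0 to 2 without 1 library. In the simulation of p53-/- against p53+/+, DESeq2 made 53 false calls where edgeR made 10. The simulated counts used the spread of each gene that edgeR had estimated. They had no gene length trend and no library that stood apart, so they cannot tell which calls here are false. Of the pathway genes, in p53-/- against p53+/+ 25 were called by DESeq2, 11 with at least 10 counts in every library, 21 with the length trend removed, 15 in a fit to 6 libraries, and 0 to 22 without 1 library. In p53R248W/+ against p53-/- 25 were called by DESeq2, 5 by limma-voom or in a fit to 6 libraries, 2 with the Y-linked covariate, 14 with the length trend removed, and 1 to 27 without 1 library. Over all genes tested, DESeq2 called 1542 and 1326 in these comparisons, and removal of the length trend 1188 and 879. Without 1 library, 37 to 1485 and 77 to 1559 of all genes were called. The cause of these shifts was not tested.

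The replicate numbers were not taken as pairs, since not every correlation of deviations between same-numbered libraries was over 0.1. Between p53+/+ and p53R248W/+ these were 0.36, 0.54, and 0.039, against -0.48 and -0.38 when numbers 1 and 2 were crossed, and each library correlated best with its own number. The column headers of the count table share a form of naming in these genotypes and have another form for p53-/-. Both are hints, and no pairing or batch is stated in the sources used here. The correlations with p53-/- ranged from -0.11 to 0.13 for same-numbered libraries and from -0.23 to 0.18 for libraries of unlike number. With the replicate block 2, 882, and 672 genes were called in the 3 comparisons in place of 1, 442, and 434, and 16 and 14 pathway genes in the comparisons with p53-/-. The block changed no call among the 10 genes.

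The other settings that changed a sign follow. With the Y-linked covariate, p53R248W/+ against p53+/+ gave 0.019 for Sod2 and 0.0023 for Trp53. p53-/- against p53+/+ gave -0.067 for Sod1, 0.0091 for Cat, and -0.10 for Prdx1, and p53R248W/+ against p53-/- gave 0.10 for Sod2, -0.076 for Cat, and 0.43 for Prdx1. With the length trend removed, they were 0.0071 for Sod2 and 0.0069 for Nfe2l2, then 0.021 for Sod2 and 0.020 for Cat, and then -0.073 for Sod1 and -0.034 for Cat. In p53R248W/+ against p53+/+, Nfe2l2 was 0.00027 with the block and 0.0040 with limma-voom, and Trp53 0.059 and 0.12.

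Leaving out 1 library in turn, p53R248W/+ against p53+/+ ranged from -0.22 to 0.12 for Foxo1, -0.0057 to 0.28 for Sod1, -0.13 to 0.10 for Sod2, -0.088 to 0.061 for Cat, -0.31 to 0.31 for Prdx1, -0.089 to 0.12 for Nfe2l2, -0.22 to 0.12 for Atm, and -0.33 to 0.48 for Trp53. p53-/- against p53+/+ ranged from -0.12 to 0.26 for Foxo3, -0.18 to 0.20 for Sod1, -0.12 to 0.11 for Sod2, -0.12 to 0.073 for Cat, -0.0051 to 0.28 for Prdx1, and -0.0060 to 0.21 for Nfe2l2. p53R248W/+ against p53-/- ranged from -0.087 to 0.35 for Sod1, -0.10 to 0.085 for Sod2, -0.10 to 0.090 for Cat, and -0.49 to 0.15 for Prdx1. Depth limits Foxo4 most, at 9 to 55 counts a library.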

Other observations

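Between the 10 genes, Pearson r of log2 CPM over the 9 libraries was lowest for Txnip and Atm (-0.83) and for Sod1 and Cat (-0.82), and highest for Sod1 and Prdx1 (0.72). The libraries differ in genotype and in the balance of long and short genes, so these values describe the libraries and are not a test.

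Sums of markers of other blood cells also differed between libraries, although the Lin- gate of the LSK sort removes mature neutrophils, monocytes, and lymphocytes. The sum of 11 neutrophil and monocyte markers was 5216 CPM in p53+/+ replicate 2 and 3918 CPM in p53R248W/+ replicate 2, and at most 1746 CPM in the other 7 libraries. All 11 had lower values in p53-/- than in p53+/+ LSKs, 5 with an unadjusted p below 0.05, beside 23.4% of all genes, and 0 called by edgeR. The sum of 8 erythroid markers was 772 to 985 CPM in p53+/+ and 1301 to 1656 CPM in p53-/- libraries, while 5 of the 8 had lower values in p53-/- and their median log2 fold change was -0.29, so the sum and the median differed in sign. The sum of 8 megakaryocyte markers was 424 to 532 CPM in p53+/+ and 597 to 629 CPM in p53-/- libraries. Of these 8, 5 had higher values in p53-/- and 3 lower, with log2 fold changes from -2.01 to 0.71. The sum of 7 T and NK lymphoid markers was 437 to 484 CPM in p53+/+ and 279 to 354 CPM in p53-/- libraries. That of 7 B lymphoid markers was 76.3 to 126 CPM and 90.5 to 106 CPM, with 5 of the 7 lower in p53-/- LSKs. The part of these in the levels of the 10 genes was not tested.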
